A study of Drosophila melanogaster with 78 samples.

Results

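The data on 4 circRNAs of 3 genes are described here: 1 of unc-13-4A, 2 of CG42268 and 1 of CG14082, out of 1194 circRNAs of 667 genes counted in total RNA. They were chosen because, of all circRNAs, those of these genes had the smallest p values for a difference in circular against linear reads between wDah and dilp 2-3,5 brains at 1 age or more with the same direction at 3 ages. That difference in brain is therefore given below as a description, without a test. The 2 circles of CG42268 are called circCG42268-a and circCG42268-b; the first met this rule, and the second is included as a circle of the same gene. The last circRNA inside the rule, circCG14082, had a fitted log2 change of −3.41 in brain at day 30, and the next one in the order, from beat-Vc on 3R, had −2.43 at day 50.

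The flies were mated females of the outbred white Dahomey strain (wDah), which carries the bacterium Wolbachia, and, in the same background, dilp 2-3,5 mutants that carry deletions of 3 of its genes for insulin-like peptides, Ilp2, Ilp3 and Ilp5. The tissues were brain, thorax freed of gut, fat body (the abdomen freed of gut and ovaries) and gut, the last with its Malpighian tubules and no crop. They were taken at days 10, 30 and 50, with 3 biological replicates per genotype, tissue and age and 72 libraries of rRNA-depleted total RNA in all. The deletions were backcrossed into wDah, so the mutants differ from the controls by the deletions and by any stretch of chromosome 3 still carried with them. By the study's methods, day 10 was made as a set of its own, so this age and that batch cannot be told apart.

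Brain libraries held 16637 to 38812 circular reads over all circRNAs, against 2016 to 8016 in thorax, 503 to 2871 in gut and 1954 to 8344 in fat body. Linear reads ranged from 60382 to 245298 per library. Of the deleted genes, Ilp2 had brain values of 388, 177 and 101 FPKM in wDah over the 3 ages, in order, but 0.580, 0 and 0 in the mutant. The markers of the labelled tissues were present, with 5 of 5 neuron genes summing to between 62.3 and 101 FPKM in brain and to no more than 30.3 elsewhere, and 4 of 4 digestive genes summing to at least 26518 FPKM in gut.

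A circRNA forms when the splice donor of an exon is joined backwards to an acceptor upstream of it, so that one or more exons close into a ring. Such rings have no free ends, are long-lived and are known to be abundant in the nervous system of flies, where the linear mRNA of the same gene competes for the same splice sites. The insulin-like peptides removed in the mutant are made by neurosecretory cells of the brain and act on tissues throughout the body. Of the host genes, unc-13-4A belongs to the Munc13 family, whose members prepare vesicles for fusion with the plasma membrane; CG42268 and CG14082 carry only systematic names.

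The junctions that the circular reads cross are shown because they define each molecule. Each is read on the transcribed strand of the BDGP6 assembly, with the last 15 bases before the join in lower case and the first 15 after it in capitals.
circunc-13-4A: caaaggatgccaatgAGTTCAGGAAACGGA
circCG42268-a: aagggagaggattagGGACAGGCGGAGAGC
circCG42268-b: ggagggtttgtccagACGGAAACGCTCAAT
circCG14082: gtgtggcccagccagAATTTATGCCTGTGC

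All 4 circles lie on the minus strand of chromosome arm 3L, start and end at annotated exon ends, and have AG before the acceptor and GT after the donor, as did 98.1% of the 1193 circRNAs looked at. circunc-13-4A (positions 7276964 to 7279357) holds exons 6 and 7 of 13, which makes a ring of 410 bases, all coding. circCG42268-a (9747135 to 9750299) holds 5 exons and 2624 coding bases; a ring of at least this length was found in 2.52% of the 1070 circRNAs whose exons could be read, against a median of 644.5 bases.

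circCG42268-b (9736928 to 9738278) lies further downstream in the gene and holds 3 coding exons of 359 bases together in 4 annotated transcripts and of 344 in another 4. circCG14082 (19110093 to 19112519) holds exons 3 and 4 of 5, 406 bases of which 306 are coding, and is the one ring of the 4 that contains an annotated start codon, a feature of 26.6% of circRNAs. Its upstream intron of 23922 bases was also the longest beside the 4, with an upstream intron of at least this length in 8.69% of circRNAs. The longest stretch of bases in up to 1000 bases of one flanking intron that could pair with the other was 11 for circunc-13-4A, 10 for circCG42268-a, 7 for circCG42268-b and 11 for circCG14082, around a median of 10. Less was searched where the upstream intron was shorter, 592 bases for circCG42268-a and 104 for circCG42268-b, where 2 of 8 transcripts have this intron and the other 6 one of 614 bases. No ring length was a multiple of 3.

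The authors kept a circRNA if it had at least 5 reads in at least 6 libraries. circunc-13-4A reached 5 reads in 9 libraries, circCG42268-a in 9, circCG42268-b in 6 and circCG14082 in 15. All of these were brain libraries. For the first 3 they were nearly all from dilp 2-3,5 flies (8 of 9, 8 of 9 and 6 of 6), so these circles entered the table through the genotype in which they are high, whereas circCG14082 reached 5 reads in 9 wDah and 6 dilp 2-3,5 libraries.

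In the fit over all brain circRNAs, 2 of 1101 (0.182%), 7 of 1085 (0.645%) and 13 of 1092 (1.19%) passed an adjusted p of 0.05 at days 10, 30 and 50 (edgeR quasi-likelihood test, Benjamini-Hochberg). As the members were chosen on this contrast, nothing further is read from their place in it. Through the choice itself, the counts include circCG42268-a, circunc-13-4A and circCG14082, and they are no evidence about these circles. circCG42268-b was not among them.

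In brain, reads over the junction of circunc-13-4A were scarce in wDah and common in dilp 2-3,5 at each age. At day 10 the wDah libraries had 3, 5 and 2 circular reads and the dilp 2-3,5 libraries 8, 22 and 21. At day 30 the counts were 0, 1 and 2 against 4, 26 and 18. At day 50 no circular read was found in the 3 wDah libraries, against 10, 14 and 23. The groups did not overlap at any age. The choice or the read filter favours such a lack of overlap, here and for the circles below. Its share over all circRNAs was not counted, so it is no result about the members. In bulk RNA such as this, fewer cells of a type and less RNA per cell cannot be told apart. The lowest values of the mutant at days 10 and 30 came from replicate 1 of each age; at day 30 this is the library with the fewest circular reads of all brain samples (16637).

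The linear reads of unc-13-4A at the same splice sites did overlap between the genotypes, with 22, 23 and 41 in wDah and 29, 55 and 39 in dilp 2-3,5 at day 10, for example. Summed over the 9 libraries of a genotype, circular reads made up 33.0% of circular and linear reads together in dilp 2-3,5 (95% exact Clopper-Pearson interval 28.7 to 37.6%) and 7.07% in wDah (3.82 to 11.8%). The ratio of summed circular to linear reads was 3.57 times as high in dilp 2-3,5 as in wDah at day 10 and 6.65 times at day 30 (counting interval 2.14 to 33.4, from 3 reads in wDah). At day 50, with a floor of 3 reads put in place of the empty wDah group, the ratio was at least 8.95-fold higher. Intervals and floors of this kind cover counting error only.

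**Figure D1:**
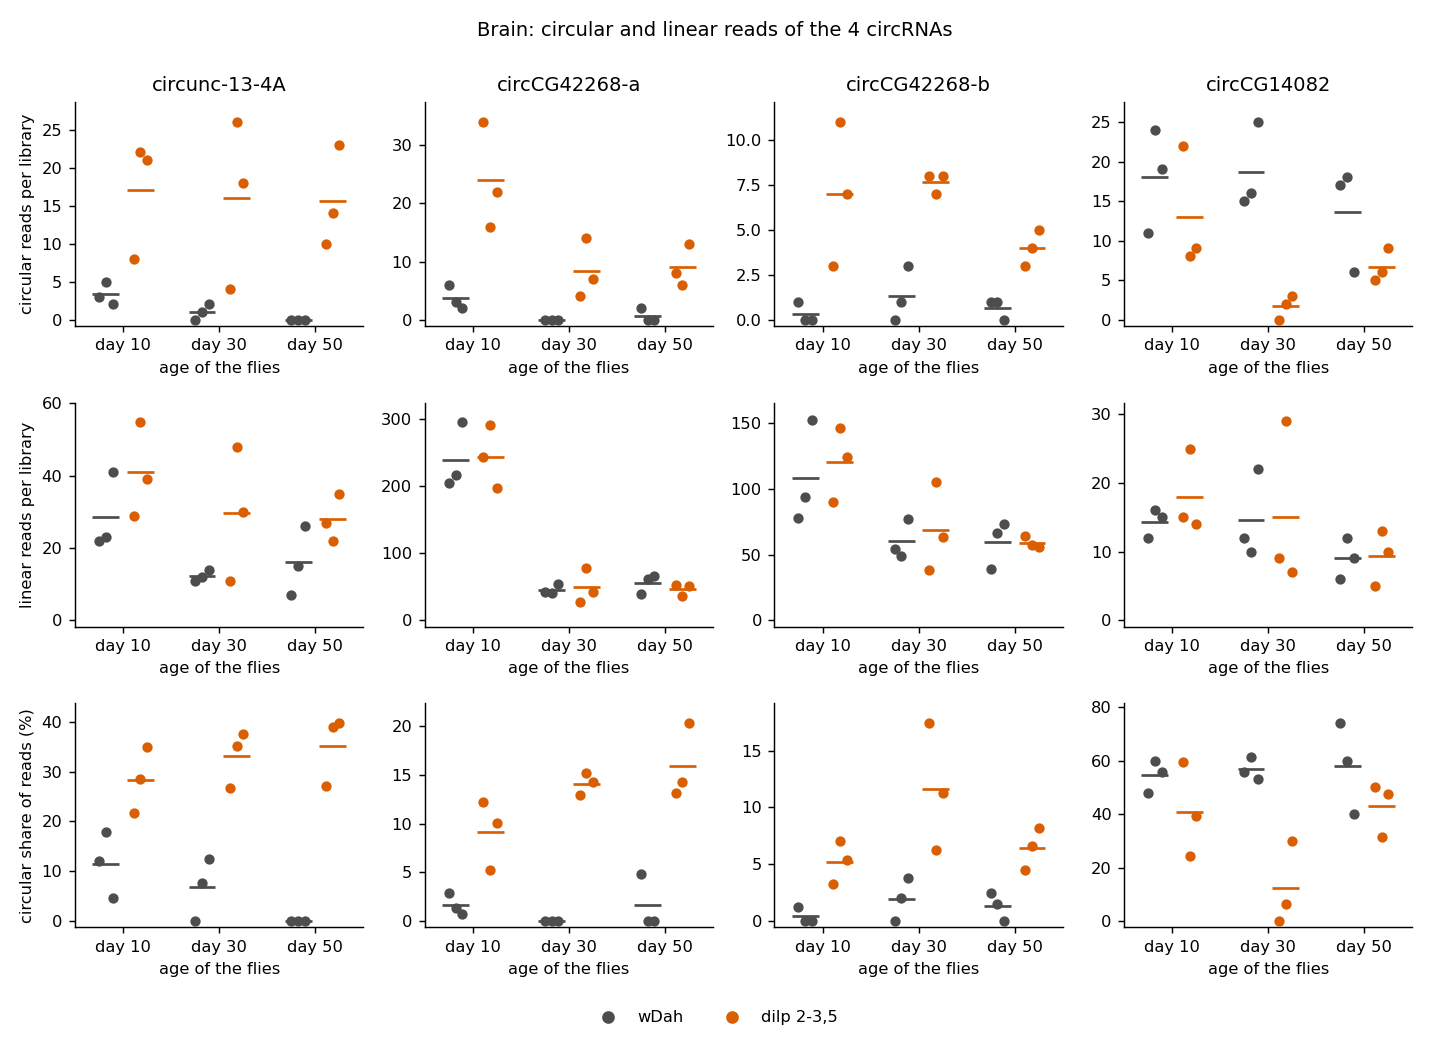
Circular reads (top), linear reads at the same splice sites (middle) and the circular share of both (bottom, in percent) of the 4 circRNAs in each brain library, by age in days; each point is 1 library, horizontal bars are means of 3. Circular reads of circunc-13-4A and of the 2 CG42268 circles were higher in every dilp 2-3,5 library than in every wDah library of the same age. circCG14082 was lower without overlap at day 30 (0 to 3 against 15 to 25 reads), and linear reads overlapped throughout. The choice or the read filter favours such a lack of overlap of circular reads, and its share over all circRNAs was not counted.

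The large circle of CG42268 differed in the same direction. circCG42268-a had 6, 3 and 2 circular reads in wDah and 34, 16 and 22 in dilp 2-3,5 at day 10. At day 30 the wDah libraries had none, against 4, 14 and 7. At day 50 there were 2, 0 and 0 reads against 8, 6 and 13. Again the mutant libraries lay above all wDah libraries of the same age. The circular share of the summed reads was 10.8% (9.10 to 12.8%) in dilp 2-3,5 and 1.26% (0.671 to 2.14%) in wDah. Against linear reads, circular reads were 6.41 times as frequent in the mutant at day 10 and 16 times at day 50, the latter with an interval of 4.02 to 139 since wDah had 2 reads. At day 30, against the same floor, they were at least 7.77-fold higher.

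circCG42268-b, closer to the end of the gene, showed the same order at lower counts. The wDah libraries had 1, 0 and 0 reads at day 10, 0, 1 and 3 at day 30 and 1, 1 and 0 at day 50. In dilp 2-3,5 the counts were 3, 11 and 7 at day 10, 8, 7 and 8 at day 30 and 3, 4 and 5 at day 50. No mutant library was as low as the highest wDah library of its age. The shares were 7.01% (5.34 to 9.01%) in dilp 2-3,5 and 1.02% (0.409 to 2.08%) in wDah. The ratio to linear reads was 18.9 times as high in the mutant at day 10 (3.04 to 782, from 1 wDah read), 5.02 times at day 30 and 6.03 times at day 50 (1.34 to 55.5, from 2 wDah reads).

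circCG14082 went the other way. Its counts were 11, 24 and 19 in wDah and 22, 8 and 9 in dilp 2-3,5 at day 10, where the genotypes overlapped. At day 30 they were 15, 16 and 25 against 0, 2 and 3, without overlap. At day 50 they were 17, 18 and 6 against 5, 6 and 9, and overlapped again. The day 10 overlap came from mutant replicate 1 (59.5% circular) and the day 50 overlap from wDah replicate 3 (40%). In wDah this circle outnumbered its linear partner, with 57.0% of summed reads circular (50.8 to 63.0%), and in dilp 2-3,5 it did not, with 33.5% (26.9 to 40.7%). Relative to linear reads it was 1.74 times as frequent in wDah at day 10, 11.5 times at day 30 and 2.13 times at day 50.

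In the fit of linear reads over the 3 ages, 95 of 1193 positions in brain were called (7.96%). Linear reads changed by 0.60 on the log2 scale for unc-13-4A (SE 0.15), −0.30 at circCG42268-a (SE 0.08), −0.14 at circCG42268-b (SE 0.10) and −0.12 for CG14082 (SE 0.21), and no test of these is given for the reason above. These values rest on TMM scaling. Scaled to library totals, the median of all positions moved to 0.25 from 0.00 and the values were 0.84, −0.05, 0.10 and 0.13, so that the direction held for unc-13-4A and at circCG42268-a but turned at circCG42268-b and for CG14082. Of the calls, 33.7% were upwards with TMM and 90.4% with library totals.

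The whole-transcript values of the host genes in brain are given as a description. The choice or the read filter favours a larger genotype difference in the circles than in their genes, so no result is read from that contrast. FPKM, a level per length of transcript and per depth of the library, is available as 1 pooled value per group, so no spread between replicates can be set beside it. For unc-13-4A, summed over 2 transcripts, brain values at days 10, 30 and 50 were 6.75, 7.92 and 7.36 in wDah and 9.29, 10.3 and 10.5 in dilp 2-3,5, ratios of 1.38, 1.3 and 1.43. CG42268, summed over 8 transcripts, gave ratios of 1.12, 1.09 and 1.22, and CG14082 of 1.28, 1.07 and 1.14. CG42268 was the most highly expressed of the 3 in brain, at 40.6 to 54.7 FPKM, most of it a transcript closest to CG42268-RH whose exons hold both circles. For CG14082, whose circle was less frequent in the mutant, the FPKM of the gene was not below that of wDah at any age.

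The gene unc-13-4A stands among genes that ready vesicles for release. Over 9 such genes (unc-13, unc-13-4A, Rim, Cadps, Rab27, the SNARE partners Syx1A, Snap25 and nSyb, and their regulator Rop), each read by its transcript with the highest FPKM in a group, the median ratio of dilp 2-3,5 to wDah was 1.26, 1.27 and 1.45 at days 10, 30 and 50. Over all genes with at least 1 FPKM in wDah the median ratio was 1.0, 1.01 and 0.997. More than 1.5 times as high in the mutant were 0 of the 9 at day 10, 1 at day 30 and 3 at day 50. Over all genes these counts were 359 of 8995, 357 of 9305 and 638 of 9506. At day 50, Snap25 was at 130 against 73.5 FPKM and unc-13 at 30.2 against 17.6. The third gene above 1.5 at day 50 was unc-13-4A, at 1.70 by this measure and at 1.43 when its transcripts are summed. The 5 neuron markers (elav, nSyb, brp, Syt1, Rdl), of which nSyb is in both lists, had median ratios of 1.36, 1.28 and 1.54, close to those of the vesicle genes. How far the neuron content of the libraries sets these ratios was not tested.

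A list of 9 genes known to act on circRNA formation or RNA handling was also read. Their median ratio was 1.09, 1.17 and 1.03 at the 3 ages. The splicing factor mbl, which promotes the circle of its own gene, was at 45.1 FPKM in dilp 2-3,5 and 24 in wDah at day 10 but at 122 and 156 at day 30. Adar, which edits paired RNA, was at 11.2 and 5.48 FPKM at day 50. No test was made on these pooled values, and the 95% limits that the authors' table gives for each were not used.

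The makeup of the brain libraries differed as well. The 3 of 3 photoreceptor markers (ninaE, ninaC, trp) summed to 217 to 657 FPKM in dilp 2-3,5 and to 670 to 1106 in wDah. In the same order, the 5 neuron markers summed to 89.8 to 101 and 62.3 to 87.4. Of these 5, only Syt1 at day 10 was lower in the mutant, at 31.8 against 38.0 FPKM. The 4 fat body markers, most of it Yp1, summed to 3902 to 5969 in the mutant and 5407 to 8653 in wDah. Yp1 and apolpp were lower in the mutant at each age. The ratios of the mutant to wDah at days 10, 30 and 50 were 1.12, 1.01 and 1.02 for bmm and 0.485, 0.546 and 2.28 for Lsp2. Glial markers summed to 477 to 695 in the mutant and 518 to 676 in wDah. The part of these differences in the circular reads was not tested.

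The position of the members on 3L is a property the choice did not use. The Ilp2 to Ilp5 genes lie on the same arm, from position 9799698 to 9823897. circCG42268-a ends 49.4 kb and circCG42268-b 61.4 kb from this interval, circunc-13-4A 2.52 Mb and circCG14082 9.29 Mb from it. Among all circRNAs, 16 of 1142 (1.4%) were called in brain at 1 or more of the 3 ages, of which 12 were on 3L and 4 on 3R, while 3L held 18.8% and 3R 24.3% of the circRNAs tested. No call fell on X, 2L, 2R or 4.

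On 3L itself, calls were made for 9 of 52 circRNAs (17.3%) within 3 Mb of the interval. Between 3 and 6 Mb they were made for 0 of 50. The counts were 1 of 58 (1.72%) between 6 and 10 Mb and 2 of 55 (3.64%) beyond. The calls within 3 Mb include circunc-13-4A, circCG42268-a and more than 1 circle of A2bp1, so they are not all separate genes. The call between 6 and 10 Mb is circCG14082. In thorax at day 10, 10 of 536 circRNAs were called (1.87%), 4 of them on 3L, which held 17.7% of those tested. In fat body at day 10, 14 of 354 were called (3.95%), with 5 on 3L, 4 on 2L, 4 on 3R and 1 on 2R. There 3L held 15.5% of those tested. Thorax at day 50 had 4 calls of 396 (1.01%), 1 of them on 3L, and gut at day 30 had 2 of 130 (1.54%), 0 on 3L. The other ages of these 3 tissues had no call. Averaged over the 3 ages, 27 of 1160 brain circRNAs (2.33%) were called, 21 of them on 3L, 3 on 3R and 3 on 2L. No test was made of these counts, which include 3 of the 4 members. The deletions and the stretch of chromosome carried with them cannot be told apart in these libraries.

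**Figure D2:**
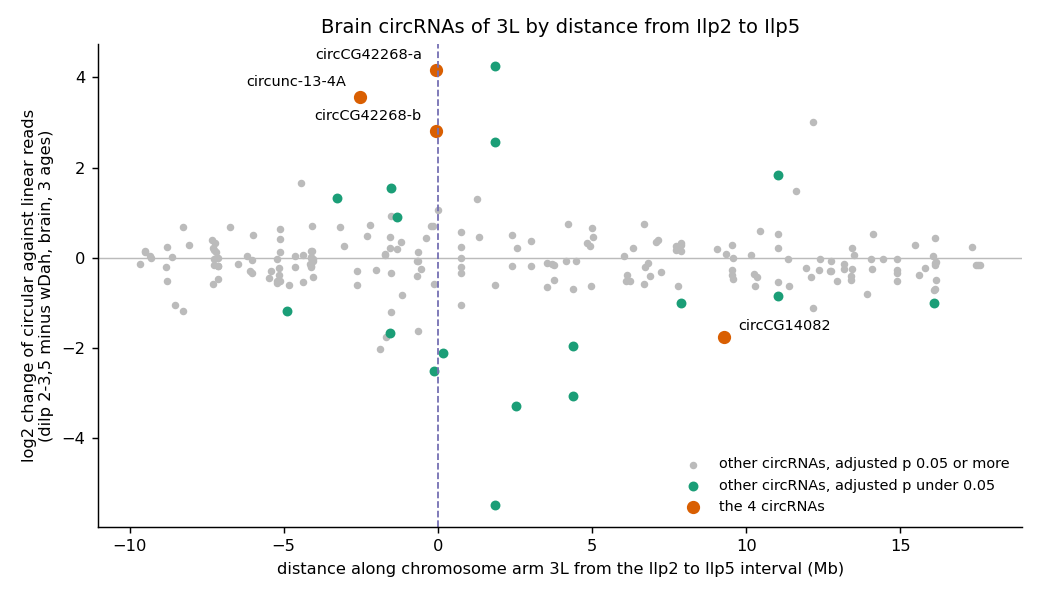
Log2 change of circular against linear reads in brain (dilp 2-3,5 minus wDah, mean of 3 ages; y axis) of every tested circRNA on chromosome arm 3L by its distance in Mb from the interval holding Ilp2 to Ilp5 (x axis, dashed line at 0); orange points are the 4 members, green points other circRNAs with an adjusted p under 0.05, and grey points the rest. The CG42268 circles lie within 0.1 Mb of the interval, circunc-13-4A at 2.52 Mb to one side and circCG14082 at 9.29 Mb to the other.

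Outside brain the circles were rare, and what is tested there was not used in choosing them. circunc-13-4A had 3 reads in the 9 thorax libraries of dilp 2-3,5, 1 in gut and 0 in fat body, and 0 reads in every wDah library of these tissues. Its linear reads were few as well, with 8 in thorax, 34 in gut and 1 in fat body over both genotypes. The gene itself was at 6.75 to 10.5 FPKM in brain, 1.52 to 2.53 in gut, 0.351 to 0.806 in thorax and 0.0356 to 0.143 in fat body, so the ranges of the 4 tissues did not overlap.

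circCG14082 had 6 reads in thorax of wDah and 1 in dilp 2-3,5, none in gut, and 2 and 0 in fat body. Its gene was at 3.65 to 8.98 FPKM in brain and at most 1.15 elsewhere. These counts are too few for a test of the genotype in either circle.

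CG42268 is expressed in all 4 tissues (9.20 to 14.2 FPKM in thorax, 15.2 to 23.9 in gut and 9.48 to 24.4 in fat body), and its circles were seen in them. circCG42268-b was the more frequent in gut. The dilp 2-3,5 gut libraries had 4, 3 and 3 circular reads at day 10, 3, 0 and 2 at day 30 and 2, 0 and 2 at day 50. In wDah the counts were 2, 0 and 1, then 2, 0 and 0, then 0, 0 and 1. The genotypes overlapped at days 30 and 50, and at day 10 the mutant libraries were above the wDah ones by 1 read or more. How many of all gut circRNAs show such an order was not counted.

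Over the 9 libraries of each genotype, the share in gut was 9.79% (6.0 to 14.9%) in dilp 2-3,5 and 2.91% (1.08 to 6.23%) in wDah. In the fit over 359 gut circRNAs, of which 5 (1.39%) were called, the difference was 1.70 on the log2 scale (SE 0.71, adjusted p = 0.227, edgeR quasi-likelihood test), which is not past the threshold. The mean share was 7.27 percentage points higher in the mutant, with the higher value at 3 of 3 ages (two-sided exact permutation of genotype within age, p = 0.0118, adjusted over 6 such tests 0.0705).

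In thorax, circCG42268-b had 8 reads in 4 of 9 dilp 2-3,5 libraries and 2 reads in 2 of 9 wDah libraries, shares of 6.30% (2.76 to 12.0%) and 1.75% (0.213 to 6.19%). The difference of 1.81 (SE 0.92) did not pass either, with an adjusted p of 0.609 in the edgeR fit over 765 thorax circRNAs, 6 of them (0.784%) called. In fat body 1 read was found in dilp 2-3,5 and 0 beside 215 linear reads in wDah, which by the floor of 3 reads allows a share of up to 1.40% (upper limit of the exact Clopper-Pearson interval 1.70%). The intervals of the log2 difference ran from −0.01 to 3.62 in thorax and from 0.30 to 3.09 in gut. Both rest on few circular reads and can be too narrow.

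**Figure D3:**
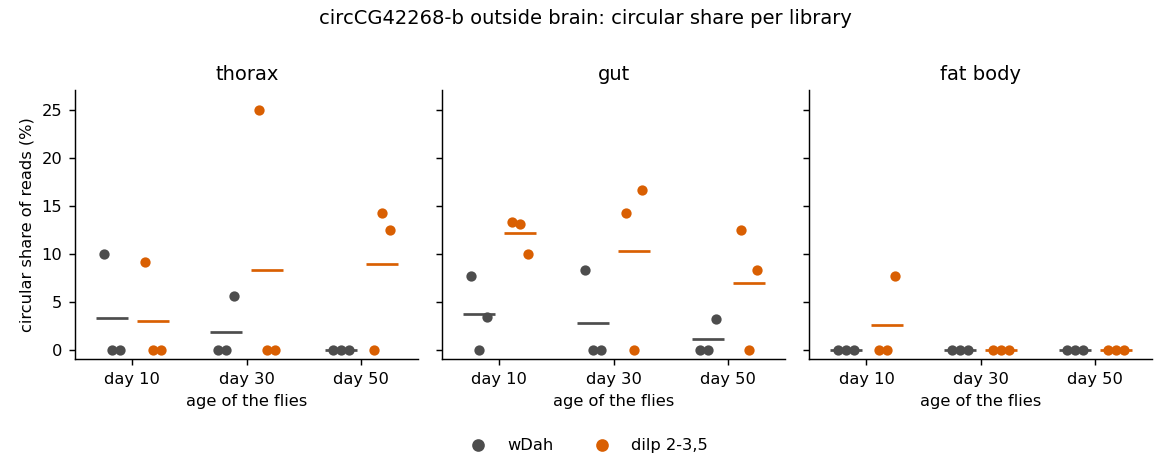
Circular share of circCG42268-b reads in percent (y axis) in each thorax, gut and fat body library by age in days, with means as horizontal bars and colours for genotype. In gut 7 of 9 dilp 2-3,5 libraries had circular reads against 4 of 9 wDah libraries, and in fat body 1 library of 18 had any.

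circCG42268-a was the more frequent of the CG42268 circles in fat body, with 10 circular reads in 8 of 9 wDah libraries and 5 reads in 3 of 9 dilp 2-3,5 libraries. Set against linear reads, these were shares of 3.39% (1.64 to 6.15%) and 3.68% (1.20 to 8.37%). The difference was −0.26 on the log2 scale (SE 0.33, adjusted p = 0.831, edgeR, 495 circRNAs tested and 2, or 0.404%, called), with an interval of −0.92 to 0.39. The mutant had no circular read at day 30, so the fitted value depends on the prior count. This interval can therefore be too narrow. With 1 library left out, the value ranged from −1.22 to 0.000648. Its sign turned under DESeq2. In gut there were 2 reads in each genotype, and in thorax 3 in dilp 2-3,5 and 0 in wDah.

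**Figure D4:**
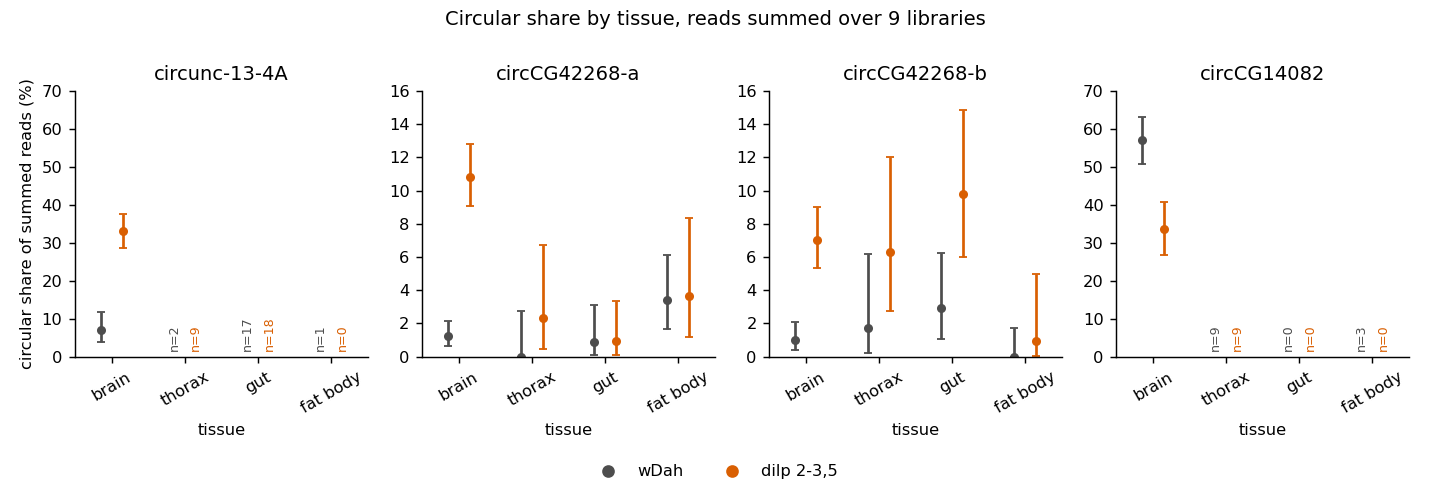
Circular share in percent (y axis) of the reads summed over 9 libraries of each genotype and tissue, with 95% exact Clopper-Pearson intervals that cover counting error only; where circular and linear reads together were under 20, their number n stands in place of a point. The brain values are those on which the members were chosen. Outside brain the intervals overlap wherever both are drawn, among them those of circCG42268-b in gut (2.91 and 9.79%) and of circCG42268-a in fat body (3.39 and 3.68%).

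Outside brain, the linear reads of CG42268 differed between the genotypes in fat body and, less firmly, in thorax as given below. At the splice sites of circCG42268-a, wDah fat bodies had 37, 31 and 34 linear reads at day 10, 27, 20 and 51 at day 30 and 23, 28 and 34 at day 50. The mutant had 17, 18 and 19, then 4, 9 and 16, then 12, 14 and 22. Scaled to 10000 linear reads of the library, the wDah values lay between 1.44 and 2.49 and the dilp 2-3,5 values between 0.314 and 1.28. They did not overlap over the 18 libraries. The share of all positions with such a lack of overlap was not counted, so it is no result by itself. The fitted log2 change was −0.86 (SE 0.13, adjusted p = 0.000287, edgeR quasi-likelihood test with TMM), where 30 of 838 positions (3.58%) were called and the median over all was −0.03. On library totals the change was −1.03 (adjusted p = 0.000497 in edgeR) around a median of −0.20, with 25% of the calls upwards against 56.7% with TMM.

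At the splice sites of circCG42268-b, which report on the same gene and are not independent, the change in fat body was −0.79 (SE 0.16, adjusted p = 0.00285, edgeR). By age it was −0.08, −1.36 and −0.93 at days 10, 30 and 50, compared with −0.69, −1.07 and −0.83 at circCG42268-a. At day 10 the scaled values at circCG42268-b overlapped (0.734 to 1.13 against 0.913 to 1.28) and at days 30 and 50 they did not. How many of all positions did the same was not counted. The pooled FPKM of the gene in fat body was 9.48, 13.1 and 14.2 in dilp 2-3,5 and 12.7, 23.4 and 24.4 in wDah, ratios of 0.749, 0.561 and 0.583.

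**Figure D5:**
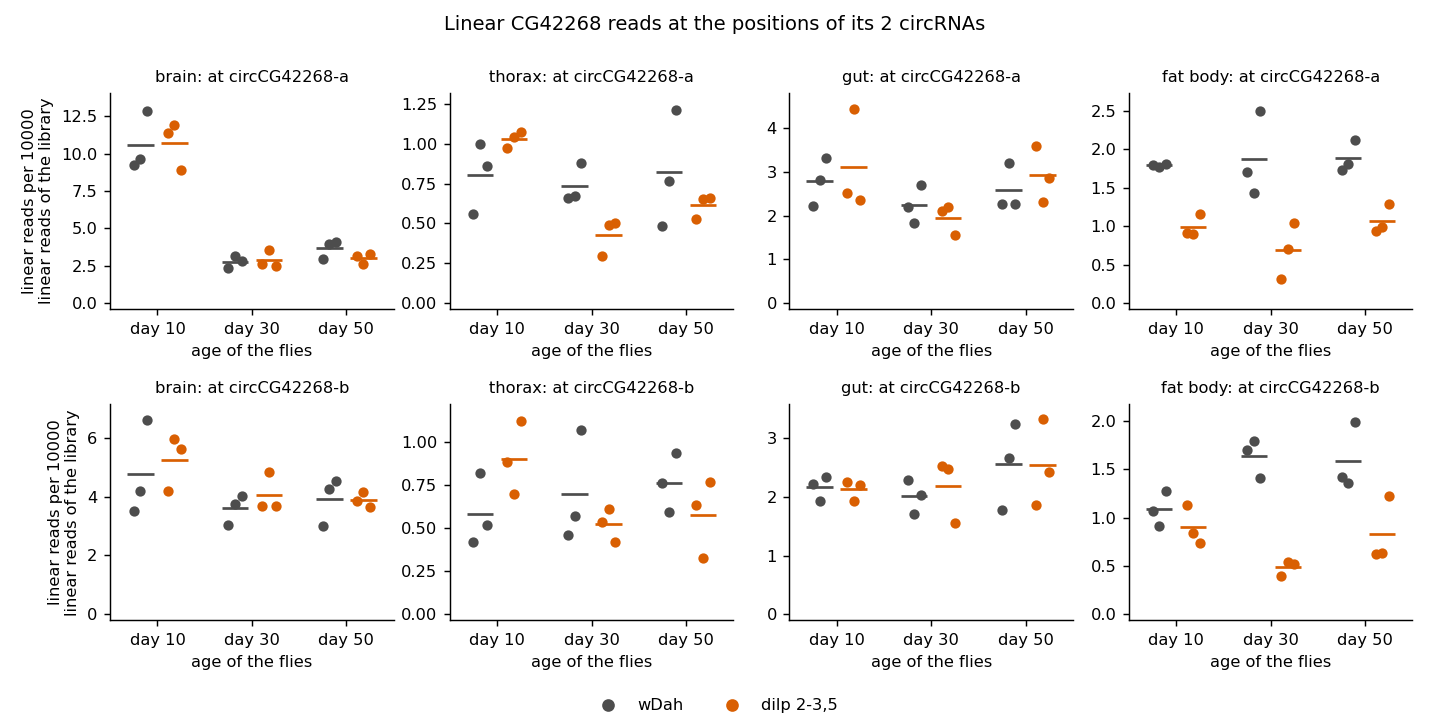
Linear reads of CG42268 at the splice sites of circCG42268-a (top) and circCG42268-b (bottom) per 10000 linear reads of the library (y axis, scaled per panel), by age in days and genotype in the 4 tissues; points are libraries and bars means of 3. In fat body all dilp 2-3,5 values at circCG42268-a lie at or below 1.28 and all wDah values at or above 1.44. In gut and brain the genotypes overlap. The share of all positions without overlap was not counted.

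In thorax the linear reads fell by 0.67 on the log2 scale at circCG42268-a (SE 0.16, adjusted p = 0.0111, edgeR, 68 of 1159 or 5.87% called). Without wDah replicate 3 of day 50, which had 22 reads where the other libraries of its group had 7 and 13, the value was −0.57 with an adjusted p of 0.0787. The call was also lost in DESeq2 (−0.66, adjusted p = 0.108) and when edgeR was run on library totals in place of TMM (−0.29, adjusted p = 0.231), where the median of all positions was 0.40 and 98.4% of the calls were upwards, against 0.02 and 35.3% with TMM. At circCG42268-b the thorax value of −0.46 did not pass (adjusted p = 0.143 in edgeR). The thorax change at circCG42268-a was −0.06, −1.16 and −0.80 at days 10, 30 and 50.

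In gut the values were 0.00 and −0.03 at the 2 positions (SE 0.14 and 0.15), with 59 of 812 positions (7.27%) called, and linear reads of unc-13-4A there changed by 0.15 (SE 0.49). A fit of the 3 tissues together, added after these values were seen, gave a difference between fat body and gut of −0.88 at circCG42268-a (SE 0.21, adjusted p = 0.0132, edgeR, 15 of 1170 or 1.28% called) and of −0.78 at circCG42268-b (adjusted p = 0.0545 in edgeR). The call at circCG42268-a was lost without replicate 1 of every group (−0.68, adjusted p = 0.298) and without replicate 2 (−0.86, adjusted p = 0.122, both edgeR). Fat body and thorax differed by −0.20 at circCG42268-a (SE 0.24, adjusted p = 0.942 in edgeR, 2 or 0.171% called), and thorax and gut by −0.68 (SE 0.23, adjusted p = 0.101 in edgeR, 38 or 3.25% called).

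Markers of gut in these dissections moved with the genotype too. The 4 of 4 digestive markers summed to 79.0 to 103 FPKM in dilp 2-3,5 fat bodies and to 459 to 1740 in wDah ones, and to 470 to 620 and 1073 to 1958 in thorax. In gut itself they summed to at least 26518 FPKM. The 4 fat body markers summed to 9498 to 30306 FPKM in dilp 2-3,5 fat bodies and to 1294 to 33957 in wDah ones. The lowest of these sums is that of wDah at day 10, where Yp1 is listed at 0, against 29657 and 16994 FPKM at days 30 and 50. The part of these markers in the CG42268 difference was not tested.

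The age of the flies was compared in the brain libraries from which the members were chosen, so the values are a description and no test of a member is given. Between days 30 and 50, the circular against linear reads averaged over the genotypes moved by −1.85 for circunc-13-4A, 1.33 for circCG42268-a, −0.81 for circCG42268-b and 1.39 for circCG14082. Of all 1160 circRNAs, 1 was called (0.0862%), and it was no member. Where a group had no circular reads, as circunc-13-4A in wDah at day 50 and circCG42268-a in wDah at day 30, the fitted value depends on the prior count.

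From day 10 to day 50, 448 of 1160 circRNAs (38.6%) were called, 413 of them upwards, with a median change of 0.62. circunc-13-4A was at −1.89 (SE 0.77), a value set by the wDah libraries, whose reads went from 10 at day 10 to 3 and 0, whereas those in dilp 2-3,5 were 51, 48 and 47. The empty wDah group of day 50 is also among the values on which this circle was chosen. The other 3 circles had changes of 0.90 for circCG42268-b, 0.39 for circCG42268-a and 0.15 for circCG14082. Day 10 cannot be told apart from its batch.

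Linear reads at circCG42268-a were more numerous at day 10 in brain, with 197 to 296 reads per library against 27 to 78 at days 30 and 50. Those at circCG42268-b, in the same gene, were 78 to 152 and later 38 to 105, and the FPKM of CG42268 stayed between 40.6 and 54.7. The shares of circCG42268-a in the mutant were 5.19 to 12.2% at day 10, against 12.9 to 20.3% later. Its circular reads there were also more numerous at day 10, with 72 over the group against 25 at day 30 and 27 at day 50. The linear reads of the same groups were 733, 147 and 140. As day 10 was a batch of its own, age and batch cannot be told apart here. The cause of the lower shares was not tested. Between days 30 and 50 the linear reads of no member were called in edgeR, where 45 of 1193 positions (3.77%) were.

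Across tissues, circCG42268-b had 63 circular reads in 18 brain libraries, 25 in gut, 10 in thorax and 1 in fat body. It entered the table through 6 brain libraries, so a level above that of other tissues was favoured by the filter and no test is read from it. In the fit of all 72 libraries its circular against linear reads were 1.73 higher in brain than in fat body on the log2 scale (SE 0.60), a value that depends on the prior count, as 5 of the 6 fat body groups had no circular read. Brain minus gut was −0.90 (SE 0.54) and brain minus thorax −0.55 (SE 1.95). Over all 1194 circRNAs, 381 (31.9%), 487 (40.8%) and 615 (51.5%) were called between brain and fat body, gut and thorax, in that order.

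Among the 18 brain libraries, the level of circunc-13-4A (log2 of circular reads per 10000 circular reads of the library) ran most closely with that of circles of Rgk1 (r = 0.907), Nos (0.904) and CG32085 (0.881) out of 1160 compared. circCG42268-a was most like circles of btsz (0.945), Nos (0.856) and sfl (0.837). circCG42268-b was most like those of CG43795 (0.818), sfl (0.768) and unc-13-4A (0.756), and circCG14082 was most like those of amon (0.856), CG31663 (0.765) and l(1)G0196 (0.760). Between members, r was 0.833 for circunc-13-4A with circCG42268-a and −0.662 for circCG14082 with circCG42268-b. The libraries include both genotypes, so these values follow the genotype difference on which the members were chosen and are a description of it.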

How the data were processed

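The deposited tables hold counts per circRNA and library, made by the authors with STAR 2.5.2b on BDGP6 and DCC. They are, for each, reads across the backsplice (circular) and reads spliced linearly at its ends, not normalized, for circRNAs with at least 5 reads in at least 6 libraries. The authors' FPKM values (HISAT2 2.0.4, StringTie 1.3.0, Cuffdiff 2.2.1) are pooled per group and have no replicates; their columns of test results and the 6 polysome libraries were not used. Exons, junction bases and gene positions came from the reference of the same assembly.

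Circular and linear counts entered edgeR 4.0.16 (R 4.3.3) as 2 columns per library, with a term per library and per group, and a quasi-likelihood test; linear counts alone were fitted with TMM. A circRNA was tested in a fit where its circular and its linear reads each summed to 10 or more (for linear fits, its linear reads), and p values were adjusted after Benjamini-Hochberg over all of them at 0.05. Shares of reads have 95% exact Clopper-Pearson intervals, a count of 0 was given a floor of 3, and likeness was Pearson's r of log2 circular reads per 10000 with 0.5 added. An SE in edgeR was the absolute log2 change divided by the square root of its F statistic, and intervals of log2 changes were built on it. The prior count shrinks the log2 change, so such SEs and intervals can be too narrow where reads are few. Fits were tested on simulated data with 2-fold and 4-fold changes and a preset spread between libraries. In the genotype fits of circular against linear reads, 2-fold changes were called in 10.7% of cases in gut, 21.6% in thorax and 24.3% in fat body. For 4-fold changes the shares were 57.4, 59.8 and 66.7%, so most smaller differences in these tissues would go uncalled. Alternatives were DESeq2 1.42.0, circular reads alone, other minimums, a replicate block, library totals in place of TMM, later ages only and leaving out libraries. The named circRNAs are all circRNAs of the 3 genes and the 3 most like each. The members and the gene lists were chosen with earlier results of these data known. No brain genotype test is used for a member.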

Additional observations from a re-analysis of the deposited data

Results flagged for a closer look

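The genotype difference in the linear reads of CG42268 was not the same in fat body and gut. At the splice sites of circCG42268-a the log2 change (dilp 2-3,5 minus wDah) was −0.86 in fat body and 0.00 in gut, and the test of the difference between these tissues gave −0.88 (SE 0.21, adjusted p = 0.0132, edgeR quasi-likelihood test, 15 of 1170 or 1.28% called), in a fit added after the values were seen. Without replicate 1 of every group it was −0.68 with an adjusted p of 0.298, and without replicate 2 it was −0.86 with an adjusted p of 0.122. Over all alternatives to this fit the adjusted p ran from 0.00862 to 0.298. Digestive markers in the fat body libraries summed to 79.0 to 103 FPKM in dilp 2-3,5 and 459 to 1740 in wDah, and their part in this difference was not tested.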

How the results depend on the processing

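With all libraries, 141 of 164 alternative values kept their direction and their side of the threshold, 3 lost a call, 8 gained one and 12 turned in sign; of 435 values with libraries left out, 407, 5, 3 and 20 did. Fitted on circular reads alone, with TMM and with no scaling factors, the change from day 10 to day 50 in brain was −2.34 and −2.48 for circunc-13-4A, −1.66 and −1.82 for circCG42268-a and −0.48 and −0.65 for circCG14082, and circCG42268-b differed between brain and gut by −1.21 and −3.36 and between brain and thorax by 0.87 with TMM. From day 10 to day 50, circunc-13-4A was at −1.88 with a minimum of 30 reads and at −1.92 with a replicate block. The block changed no call that the report gives for a member. Of 36 pairs of libraries with the same number, 8 correlated over 0.1 in their deviations from group means (range −0.42 to 0.34). With 3 libraries per group, these values cannot decide whether the numbers pair the samples. DESeq2 gave 0.0839 for circCG42268-a in fat body, 0.0343 and 0.0144 for the linear reads of both CG42268 positions in gut, −0.66 for those of circCG42268-a in thorax and 1.03 for circCG42268-b between brain and fat body, and with no minimum the gut value of circCG42268-a was 0.0204. With days 30 and 50 only, the shares of circCG42268-a in thorax and circCG42268-b in fat body had a genotype difference of 0. On library totals in place of TMM, added after the data were seen, linear reads gave 0.0384 and 0.0128 for circCG42268-a and circCG42268-b in gut, −0.29 for circCG42268-a in thorax, 0.029 for circCG42268-b from day 30 to day 50 in brain, and, for circCG42268-b, −0.96 between fat body and gut and −0.88 between fat body and thorax (adjusted p = 0.0155 and 0.0296 in edgeR).

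With 1 library left out at a time, day 50 against day 10 in brain ranged from −2.17 to −1.62 for circunc-13-4A, from −1.12 to 0.72 for circCG42268-a and from −0.13 to 0.48 for circCG14082. Day 50 against day 30 ranged from −0.17 to 1.66 for circCG42268-a, turning without wDah replicate 1 of day 50. circCG42268-a in fat body ranged from −1.22, without dilp 2-3,5 replicate 1 of day 50, to 0.000648, without replicate 3. Linear reads in gut ranged from −0.0823 to 0.067 at circCG42268-a, from −0.0904 to 0.0469 at circCG42268-b and from −0.0621 to 0.33 for unc-13-4A, those of circCG42268-a in thorax from −0.75 to −0.57. In fat body the linear calls held without any 1 library. The change ran from −0.96 to −0.79 at circCG42268-a (adjusted p up to 0.000944 in edgeR). At circCG42268-b it ran from −0.92 to −0.74 (adjusted p up to 0.0118 in edgeR). With replicate 1, 2 or 3 left out of all groups, the difference between fat body and gut ranged from −1.10 to −0.68, brain against fat body for circCG42268-b from 1.42 to 1.90 and brain against thorax from −0.76 to 0.22.

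Counts of calls moved more. Circular reads alone, with TMM and with no factors, gave 15 and 13 calls for day 50 against day 30 in place of 1, 17 and 19 for genotype in fat body in place of 2, 9 and 10 in gut in place of 5, 22 and 19 in thorax in place of 6, and 1036 and 982 between brain and fat body in place of 381. With TMM there were 1005 between brain and gut in place of 487 and 998 between brain and thorax in place of 615. Day 50 against day 30 had 2 calls with a minimum of 30 reads, with none and with the block, and 0 in DESeq2. Genotype in fat body had 1 with no minimum, with the block and in DESeq2 and 0 at days 30 and 50 only, gut had 3 with no minimum and in DESeq2, and thorax 2 in DESeq2. Linear reads on library totals gave 308 calls in thorax in place of 68, 313 in brain in place of 95 and 119 for fat body minus thorax in place of 2. Fat body minus gut had 27 with no minimum and 24 in DESeq2 in place of 15. With 0.1 added in place of 0.5, circCG42268-b was most like the circle of CG32085 (r = 0.813) and circunc-13-4A that of Nos (0.913). The cause of these changes was not tested. Outside brain each circle had at most 25 circular reads per tissue, which limits the circular values of the members there.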
